A study of Mus musculus with 3 samples.

Results

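The annexin genes measured here were Anxa1, Anxa2, Anxa3, Anxa4, Anxa5, Anxa6, Anxa7, Anxa10 and Anxa11, taken as every probe whose RefSeq accession in the scanner files belongs to one of these genes. That gave 9 genes of the 21150 named on the array and 12 probes of 55664. They were read on 3 Agilent 1-colour mouse arrays, 1 for each of 3 cell populations cut from frozen pancreas by laser microdissection: acinar cells, duct cells, and cells of acinar-to-ductal metaplasia (ADM), in which acinar cells lose enzyme-secreting features and take on duct-like ones. All 3 populations came from the study's 3 wild-type mice, 48 h after pancreatitis caused by caerulein, an analogue of cholecystokinin that overstimulates acinar cells, so the acinar and duct cells are those of injured pancreas as well and no uninjured pancreas was analysed here. The strain, age and sex of the mice, whether each RNA came from a single mouse or a pool, and how the cells were recognised before cutting are not given in the sources used here. With 1 array per population there is no replicate and no test between populations. Each difference is a comparison of arrays.

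Annexins are proteins that bind acidic phospholipids of membranes when calcium is present, through a core of repeated helical domains that the family shares. The N-terminal part in front of the core differs between members, and in several it carries the binding site for a small calcium-binding protein such as S100A10 or S100A11. In epithelia, annexins are known for organising the apical membrane, for vesicle fusion and traffic, and for closing holes in a torn plasma membrane. Both calcium overload and vesicle traffic are central to the injury that caerulein causes in acinar cells.

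A level below is the log2 processed intensity of a probe minus the 75th percentile of its array, so 0 is that percentile. Its error is the scanner software's own estimate for the spot, which covers the spot and not mice or dissections. It was 0.14 on each array for bright probes such as those of Anxa4 and Ctrb1. Of 55664 probes, 22654 were well above background for acinar cells, 27676 for ADM and 27849 for duct. No spot was saturated, and the median SD among repeated spots lay between 0.0896 and 0.122 log2 units. The arrays differed in markers of the populations. All 11 acinar markers were at least 2-fold lower in duct than in acinar cells (24.6% of all genes were). The 10 of 10 compared duct markers were at least 2-fold higher in duct (27.4% of all genes were). All 11 acinar markers were still well above background on duct, at levels from −1.40 (Ptf1a) to 9.51 (Ctrb1). The islet gene Ins2 lay between 8.36 and 9.25 on the 3 arrays. Cftr, a chloride channel of duct cells, was not well above background on any of the 3 arrays. In ADM, 10 of 11 acinar markers were at least 2-fold below the acinar array and 5 of 10 duct markers at least 2-fold above it. Of all genes, 22.0% were below and 21.8% above. The duct marker Tspan8 was at least 4.60-fold below acinar in ADM.

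By the brightest probe, most annexins had their lowest level on the acinar array, a middle level on ADM and their highest level on duct. Of the 7 annexins well above background on all 3 arrays, 6 followed that order (Anxa1, Anxa2, Anxa4, Anxa5, Anxa7 and Anxa11), which 19.6% of the 9539 genes measured in the same way also did. With the second-brightest probe where a gene has several, 4 of 6 did (Anxa2, Anxa4, Anxa5 and Anxa7, against 18.6% of genes), and Anxa1 and Anxa11 left the order. Duct was at least 2-fold above acinar in 8 of 9 annexins, against 27.4% of all genes compared, and at least 2-fold below it in 1 (Anxa10), against 24.6%. ADM was at least 2-fold above acinar in 6 of 9 (Anxa1, Anxa2, Anxa3, Anxa5, Anxa7 and Anxa10), against 21.8%, and at least 2-fold below in 0, against 22.0%. Against duct, ADM was at least 2-fold lower in 6 of 9 (Anxa1, Anxa2, Anxa4, Anxa6, Anxa7 and Anxa11), against 24.8%, and at least 2-fold higher in 1 (Anxa10), against 21.6%. With the second-brightest probe, 6 of 9 were higher in duct than in acinar cells and 2 lower, against 26.9% and 25.6% of genes. For ADM against acinar, 5 were then higher and 1 lower, against 22.7% and 22.9%. Against duct, 4 were lower in ADM and 1 higher, against 25.0% and 24.2%. The plot of these shares sets each count by the brightest probe beside its background.

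**Figure D1:**
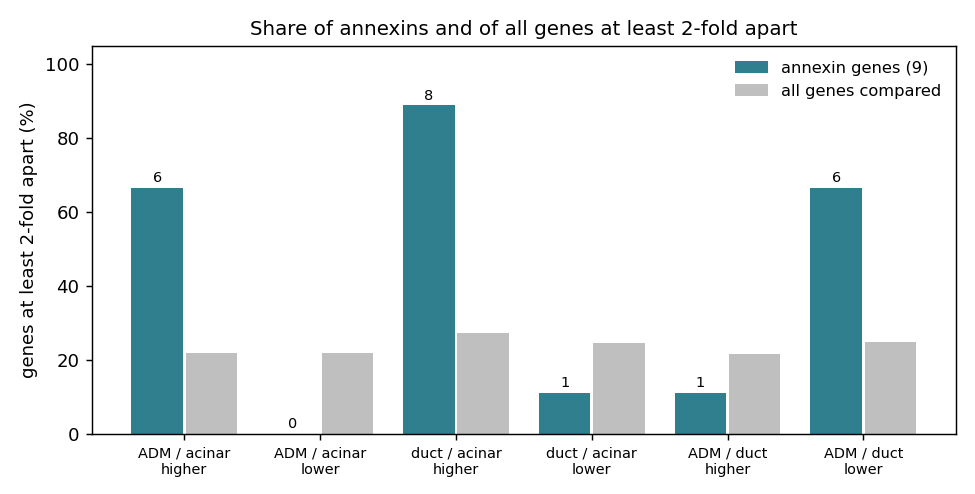
Share of genes at least 2-fold apart (vertical axis, percent) in each comparison and direction, for the 9 annexin genes (teal bars, with the number of genes) and for all genes compared (grey bars). By the brightest probe, which is plotted, annexins are 8 of 9 higher in duct than in acinar cells, against 27.4% of all genes. By the second-brightest probe they are 6 of 9, against 26.9%.

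The median difference of the 9 annexins was 1.36 log2 units for ADM minus acinar, 2.27 for duct minus acinar and −1.22 for ADM minus duct, where the medians over all genes compared were 0.00, 0.00 and −0.05. Scaling each array to its median instead moved the all-gene median for duct minus acinar to 0.28 and that of the annexins to 2.65, so the annexins stood 2.37 above it. The errors of the annexin differences lay between 0.20 and 0.28 log2 units. In dissected tissue, fewer cells of a type and less RNA per cell cannot be told apart.

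**Figure D2:**
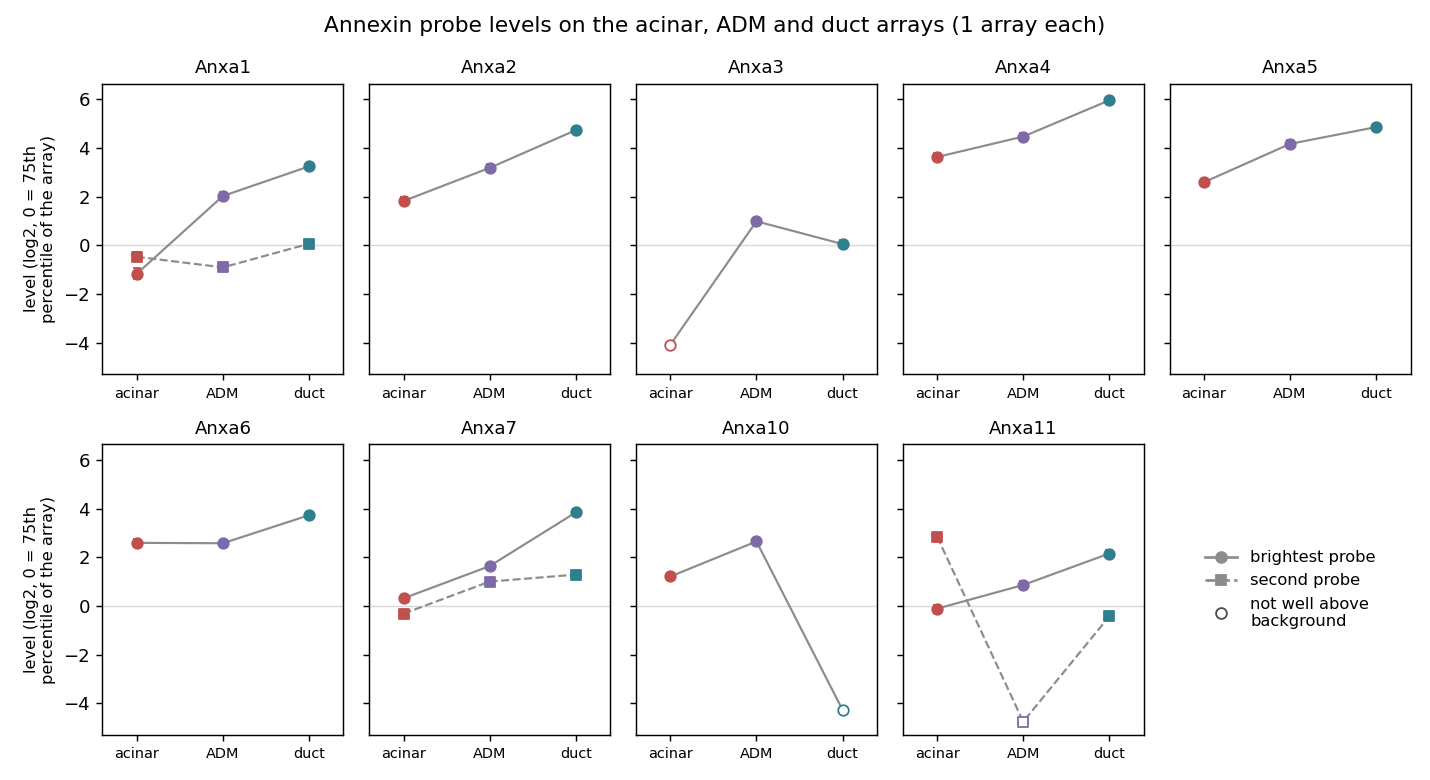
Level of every probe of the 9 annexin genes on the acinar, ADM and duct arrays (log2, 0 is the 75th percentile of the array), with the brightest probe of a gene as circles on a solid line, a second probe as squares on a dashed line, and the spot's error estimate as bars, often smaller than the symbol. Open symbols are probes not well above background. In 6 panels the brightest probe steps up from acinar to ADM to duct. Anxa10 is not well above background on duct, and the probes of Anxa1 and of Anxa11 differ.

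Anxa2 is the annexin that pairs with S100A10 at the cell surface and the cortex, where the complex binds plasminogen and its activator and links membranes to actin. Its probe read 125 intensity units for acinar cells, 658 for ADM and 2550 for duct. On the common scale the levels were 1.83 ± 0.15, 3.19 ± 0.14 and 4.74 ± 0.14. The 3 arrays were thus spaced well beyond the spot errors, which do not cover mice or dissections. ADM was 2.57-fold above acinar (1.36 ± 0.21 log2 units), duct was 7.51-fold above acinar (2.91 ± 0.21), and ADM was 2.93-fold below duct (−1.55 ± 0.20). Each of these differences kept its direction and its 2-fold size under the alternatives run on it, of which 4 could not move it, since Anxa2 has 1 probe and was well above background on every array.

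Anxa1, an inhibitor of phospholipase A2 and a ligand of formyl peptide receptors that is induced by glucocorticoids, had the widest range over the arrays among annexins detected on all 3 (4.41 log2 units). Its brightest probe read 15.7 on acinar, 295 on ADM and 909 on duct, that is levels of −1.16 ± 0.23, 2.03 ± 0.14 and 3.25 ± 0.14. ADM was 9.15-fold above acinar (3.19 ± 0.28) and duct 21.3-fold (4.41 ± 0.28), differences matched or exceeded by 2.46% and 1.31% of all genes compared. With normexp background correction these differences shrank to 1.77 and 2.93. Duct minus acinar was then larger for Anxa2 (3.2) and Anxa7 (3.1), so the size and the rank of Anxa1 depend on how background was treated. The second probe of the same transcript did not show differences of this size. Its levels were −0.47 ± 0.18 on acinar, −0.90 ± 0.16 on ADM and 0.07 ± 0.15 on duct, with ADM minus acinar at −0.43 ± 0.24 and duct minus acinar at 0.54 ± 0.23. The ADM minus duct difference was alike in the probes, at −1.22 ± 0.20 and −0.97 ± 0.22. The direction of Anxa1 between ADM and acinar cells is therefore not settled by these arrays. Of all genes at least 2-fold apart for ADM against acinar, 1328 had a second probe compared. That probe had the same direction in 824 of 1328 (62.0%). A second probe without a callable direction was counted among the rest, which therefore need not all point the opposite way.

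The stretches before the transcription start of Anxa1, Anxa2 and Anxa10 are shown. By the brightest probe, Anxa1 and Anxa2 were highest on duct, but so were Anxa4, Anxa5, Anxa6, Anxa7 and Anxa11, for which no sequence is shown. Anxa10 was not well above background on duct. The stretches are the 250 bases upstream of the start in the RefSeq table for GRCm38.p6, while the array itself is annotated on mm9. Capitals mark matches on either strand to any of 4 motifs. The TATA box was searched as TATAAA. The CCAAT box was searched by its name. The GC box was searched as GGGCGG. The AP-1 site was searched as TGANTCA. No matches overlap here.
Anxa1 (chr19:20390672-20390921, - strand): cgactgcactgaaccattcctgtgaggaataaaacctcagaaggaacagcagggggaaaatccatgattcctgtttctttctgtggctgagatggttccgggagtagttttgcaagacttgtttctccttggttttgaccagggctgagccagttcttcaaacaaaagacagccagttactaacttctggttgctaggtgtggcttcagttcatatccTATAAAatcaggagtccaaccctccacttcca
Anxa2 (chr9:69453433-69453682, + strand): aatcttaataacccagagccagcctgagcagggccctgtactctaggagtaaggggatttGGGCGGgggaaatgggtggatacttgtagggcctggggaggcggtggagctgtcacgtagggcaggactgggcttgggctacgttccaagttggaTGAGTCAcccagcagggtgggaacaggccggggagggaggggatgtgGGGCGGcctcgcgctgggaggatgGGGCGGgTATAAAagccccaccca
Anxa10 (chr8:62123194-62123443, - strand): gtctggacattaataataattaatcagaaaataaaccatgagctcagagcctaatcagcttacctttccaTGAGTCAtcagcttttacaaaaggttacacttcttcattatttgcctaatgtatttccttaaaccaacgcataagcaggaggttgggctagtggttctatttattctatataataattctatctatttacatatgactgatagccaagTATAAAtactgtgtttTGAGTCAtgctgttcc
All 3 hold TATAAA, which 12.4% of 32851 RefSeq promoter windows of this length held, at 32, 17 and 32 bases before the start. They are the 3 of 7 annexin genes with a window in which it was found. TGANTCA, held by 6.75% of windows, matched in Anxa2 (95 bases before the start) and at 2 places in Anxa10 (180 and 16 bases). GGGCGG, held by 32.7%, matched 3 times in Anxa2 and in neither of the others. The Anxa2 window had 9 CpG dinucleotides and 62.4% G or C, the Anxa1 window 2 and 46.0%, and the Anxa10 window 1 and 33.6%, where the median over all windows was 6 and 52.4%. RefSeq windows were found for 7 of the 9 genes. Among the others, Anxa11 (17 CpG) held 3 GC boxes, and the windows of the Anxa7 starts (16 and 2 CpG) held 4 and 1. Anxa5 (13 CpG) and the Anxa4 starts (2 and 13 CpG) held none of the motifs. A match describes letters and not a bound site.

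Anxa4, an annexin enriched in simple epithelia, read 437 on acinar, 1610 on ADM and 5970 on duct. Its levels were 3.63 ± 0.14, 4.47 ± 0.14 and 5.96 ± 0.14. Duct was 5.02-fold above acinar (2.33 ± 0.20) and 2.80-fold above ADM (ADM minus duct −1.49 ± 0.20). ADM lay 0.84 ± 0.20 above acinar, beyond the spot error but short of 2-fold, and passed 2-fold with normexp background correction (1.24) and with median scaling (1.07).

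Anxa5, which binds the phosphatidylserine that dying cells expose and is the reagent used to stain them, read 213 on acinar, 1300 on ADM and 2790 on duct. The levels were 2.60 ± 0.14, 4.17 ± 0.14 and 4.86 ± 0.14. ADM lay closer to duct than to acinar here: it was 2.98-fold above acinar (1.58 ± 0.20) and 1.61-fold below duct (−0.69 ± 0.20). Duct minus acinar was 2.27 ± 0.20.

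Anxa6 carries a duplicated core and is known from endosomes and from membrane cholesterol traffic. Its intensities were 214 on acinar, 434 on ADM and 1280 on duct, and its levels 2.60 ± 0.14, 2.59 ± 0.14 and 3.74 ± 0.14. The acinar and ADM arrays did not differ beyond the spot error (−0.02 ± 0.20), so their order is not resolved, and it turned under 4 alternatives (median scaling, the percentile over detected probes, quantile normalization and normexp). Duct was 2.20-fold above acinar (1.13 ± 0.20) and 2.22-fold above ADM. Anxa6 was thus the annexin with the narrowest range (1.15 log2 units) of the 7 detected everywhere.

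Anxa7 and Anxa11 have long N-terminal parts and bind the calcium sensors sorcin and ALG-2. Anxa7, or synexin, was named for the aggregation of secretory granules, and its brightest probe read 44.1 on acinar, 226 on ADM and 1380 on duct. Levels were 0.32 ± 0.15, 1.65 ± 0.14 and 3.85 ± 0.14. The second probe had the same order at −0.31 ± 0.17, 1.01 ± 0.15 and 1.30 ± 0.14. Both probes put ADM above acinar by nearly the same amount, 1.32 ± 0.21 and 1.32 ± 0.22. They parted in duct, where the brightest probe was 3.53 ± 0.21 above acinar and the other 1.60 ± 0.22. ADM minus duct was −2.20 ± 0.20 in the first and −0.29 ± 0.21 in the second, so the 2-fold difference between ADM and duct rests on 1 probe.

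Anxa11, which binds ALG-2 and S100A6 and is known from vesicle traffic and from tethering RNA granules to lysosomes, read 32.8, 132 and 429 on acinar, ADM and duct in its brightest probe. Its levels were −0.10 ± 0.17, 0.87 ± 0.15 and 2.16 ± 0.14, which put duct 4.80-fold above acinar (2.26 ± 0.22) and ADM 0.97 ± 0.22 above acinar, just inside 2-fold. That difference passed 2-fold with median scaling and with the percentile over detected probes (1.07). The second probe opposed this. It was highest on acinar (2.85 ± 0.14), at −0.42 ± 0.15 on duct, and not well above background on ADM, so that ADM was at least 63.9-fold and duct 9.63-fold below acinar. No direction against acinar can be given for Anxa11 from these arrays. Both probes had ADM below duct, by −1.29 ± 0.21 and by at least −2.73.

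**Figure D3:**
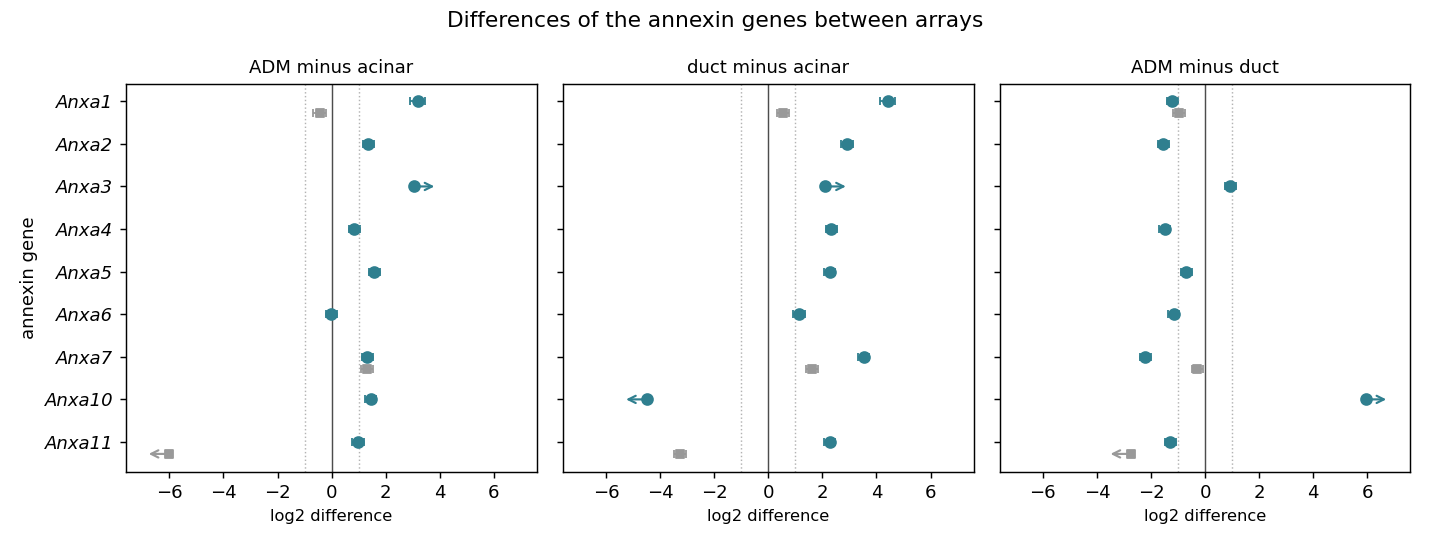
Differences between arrays for each annexin gene in log2 units, with the brightest probe as teal circles and a second probe as grey squares. Bars are the error of the difference from the spot errors. Arrows are bounds, where 1 array was not well above background. Dotted lines mark 2-fold. In duct minus acinar, 8 of 9 teal circles lie to the right of 2-fold and Anxa10 lies far to the left.

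Anxa3 and Anxa10 departed from the common order. Anxa3, an annexin abundant in neutrophils and also found in epithelia, was not well above background on the acinar array (2.08 intensity units) and read 144 on ADM and 99.5 on duct. It was therefore at least 8.20-fold higher in ADM (3.04 log2 units) and at least 4.29-fold higher in duct (2.10) than the lowest level that could be called on the acinar array. Its levels were 0.99 ± 0.14 on ADM and 0.06 ± 0.15 on duct, which made Anxa3 the only member besides Anxa10 with ADM above duct (0.93 ± 0.20, 1.91-fold). With normexp background correction the bounds against acinar shrank to 0.58 and 0.54, and ADM minus duct to 0.04, so these calls depend on how background was treated.

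Anxa10 is an annexin that has lost most calcium-binding sites of the core and is known as a product of gastric surface epithelium. It was the single member not well above background on duct: its probe read 82.0 on acinar, 456 on ADM and 4.99 on duct. Its levels were 1.22 ± 0.15 on acinar and 2.66 ± 0.14 on ADM. ADM was 2.71-fold above acinar (1.44 ± 0.21), at least 61.2-fold above duct (5.94 log2 units), and acinar was at least 22.6-fold above duct (duct minus acinar −4.50). Only 0.145% of genes compared had an ADM minus duct difference as large. The bounds became 3.38 and −1.97 with normexp, and stayed past 2-fold under all 9 alternatives that could be run. Anxa10 has 1 probe on this array, so no further probe bears on it.

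The other annexin genes with a probe here gave no common picture. Anxa13, the family member of intestine and kidney epithelium, followed duct, with levels of 1.88 ± 0.15 on acinar, 1.90 ± 0.14 on ADM and 4.24 ± 0.14 on duct, so that duct was 5.12-fold above acinar while ADM minus acinar was 0.02 ± 0.21. Anxa9, an atypical annexin with little calcium binding, was lowest on ADM, with levels of 2.07 ± 0.15, 1.03 ± 0.15 and 2.52 ± 0.14 in the same order. ADM was 2.05-fold below acinar (−1.03 ± 0.21) and 2.81-fold below duct. Anxa8, known from stratified epithelia, was dim: its brighter probe had levels of −1.54 ± 0.25 on acinar and −2.81 ± 0.27 on ADM, was not well above background on duct, and its other probe was not well above background on any array. With these genes included, duct was at least 2-fold above acinar in 9 of 12 annexins and below it in 2, beside 27.4% and 24.6% of all genes. ADM was above acinar in 6 of 12 and below it in 2, beside 21.8% and 22.0%.

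The small calcium-binding proteins that annexins bind were next compared, as S100A10 is the partner of annexin A2, S100A11 of annexin A1 and A2, S100A6 of several, and sorcin (Sri) and ALG-2 (Pdcd6) of annexin A7 and A11. All 8 were at least 2-fold higher in duct than in acinar cells (median 3.34), and for ADM 6 of 7 compared were (median 2.65), beside 27.4% and 21.8% of all genes. S100a10 had levels of 0.63 on acinar, 3.28 on ADM and 5.07 on duct, the same order as Anxa2, with ADM 2.65 and duct 4.44 above acinar. S100a11 (2.45, 5.67 and 5.78) was 3.22 above acinar in ADM and 3.33 in duct, and its ADM and duct levels differed by only −0.11. S100a6 had the widest difference between duct and acinar of the list, at 6.21, and 4.59 for ADM, from levels of 0.75, 5.34 and 6.96.

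Among the remaining partners, S100a4 was not well above background on acinar and lay at 3.20 on ADM and 2.05 on duct. It was at least 5.24 above acinar in ADM, and 5.16 in its second probe, whereas the second probe gave no callable difference between duct and acinar. S100a1, a binder of annexin A6, resembled Anxa6: its levels were 3.51 on acinar, 3.50 on ADM and 4.86 on duct. Sri was higher in both ADM (2.14) and duct (2.54) than in acinar cells, and Pdcd6 by 1.38 and 1.15. Against duct, ADM was at least 2-fold lower in 4 of 8 partners and higher in 1, S100a4 (1.15, and 5.55 in its second probe). Of all genes, 24.8% were lower and 21.6% higher.

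**Figure D4:**
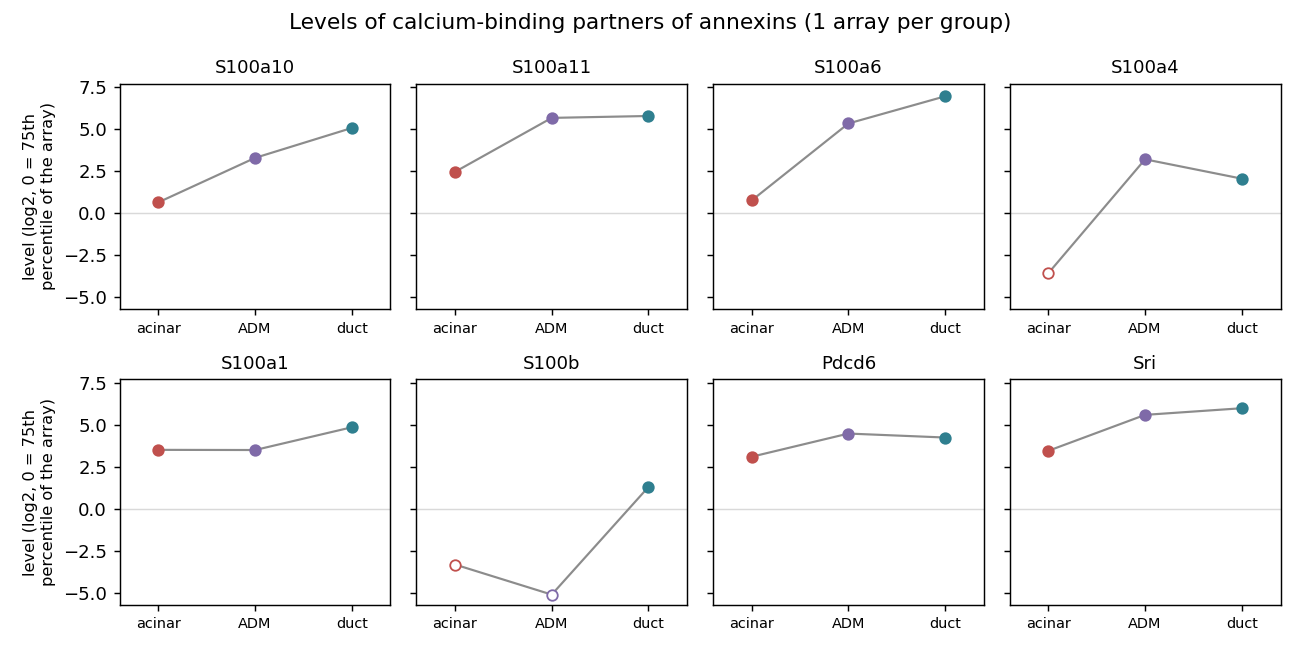
Levels of 8 calcium-binding partners of annexins on the acinar, ADM and duct arrays (log2, 0 is the 75th percentile of the array, 1 array per population), with the spot's error estimate as bars and open symbols for probes not well above background. S100a10 and S100a6 step up from acinar to ADM to duct, while S100a11 is at the same height on ADM and duct.

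Membrane repair genes, which act with annexins at plasma membrane wounds, were at least 2-fold higher in duct than in acinar cells in 8 of 9 compared (median 2.13) and in 4 of 7 for ADM (median 1.29), with 0 lower in either, beside 27.4% and 21.8% of all genes higher. The scaffold Ahnak, a ligand of the annexin A2 complex, had levels of 3.20 on acinar, 5.61 on ADM and 6.30 on duct, but its second-brightest probe put ADM 0.76 above acinar against 2.41 for the brightest. The calpains Capn1 and Capn2, calcium-activated proteases, were 2.92 and 2.32 higher in ADM and 2.31 and 2.96 higher in duct. Caveolin Cav1 was well above background on ADM and duct, where duct was at least 2.56 above acinar. The repair ferlins Dysf and Myof were well above background on duct alone, Myof by at least 3.24 over ADM, and Trim72, a repair protein of muscle, on none.

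Genes that expose or recognise phosphatidylserine, the lipid that annexin A5 binds, were at least 2-fold higher than acinar in 5 of 9 for ADM and 5 of 9 for duct, with 0 and 1 lower. Of all genes, 21.8% and 27.4% were higher and 22.0% and 24.6% lower. Adgrb1, counted as higher in duct, had a second probe of opposite direction (−0.58). Plscr1, a scramblase-family protein, had the largest difference from acinar of the list, at least 4.21 above acinar in ADM and at least 4.08 in duct, and its second probe gave 4.10 and 3.43. The bridging ligand Gas6 was 1.22 above acinar in ADM and 3.04 in duct, and its receptor Axl 2.19 in ADM and 0.76 in duct. Mertk, a receptor of phagocytes, was well above background on ADM alone, by at least 3.01 over duct. Ano6, a calcium-dependent scramblase, was the member lower in duct (−1.84).

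Among genes around annexin A1, differences ran both ways. Of 5 compared, ADM was at least 2-fold above acinar in 1 and below it in 1, and duct above in 2 and below in 2. For ADM these counts lie near the shares of all genes, 21.8% and 22.0%; for duct those shares were 27.4% and 24.6%. Pla2g4a, the cytosolic phospholipase A2, was 2.04 higher in ADM and 4.74 higher in duct, from levels of −1.20, 0.83 and 3.54. Tsc22d3, a glucocorticoid-induced gene, was 2.94 above acinar in duct and 0.54 in ADM. The receptors of annexin A1, Fpr1 and Fpr2, were not well above background on any array. The glucocorticoid receptor gene Nr3c1 had probes of opposite direction for ADM minus acinar (−1.43 and 1.81) and for duct minus acinar (−1.91 and 0.87). The counts of genes below acinar, for ADM and for duct, include it by its brightest probe.

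Genes of plasminogen activation at the cell surface, the process annexin A2 assists, were also compared. Of 6 compared for ADM and acinar cells, only the inhibitor Serpine2 passed 2-fold (1.96 higher in ADM), with a median of 0.27 over the list. Of all genes, 21.8% were higher in ADM and 22.0% lower, so the count of genes higher lies near the share of all genes. In duct, 3 of 5 were higher than acinar: the urokinase receptor Plaur by at least 1.81, urokinase Plau by 1.24 and the plasminogen receptor Plgrkt by 1.13. Serpine2 was lower in duct, with a bound of −1.88. Of all genes, 27.4% were higher in duct and 24.6% lower. Plg itself, made in liver, was not well above background on any array, and the tissue activator Plat was detected on ADM alone.

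Markers of some other cell types were also higher where annexins were. Fibroblast and stellate markers were at least 2-fold higher than acinar in 9 of 10 for ADM (median 2.50), beside 21.8% of all genes. For duct, 8 of 10 of these markers were higher (median 1.66), beside 27.4% of all genes. Their summed signal, in multiples of the array's 75th percentile, was 85.6 on acinar, 337 on ADM and 327 on duct. The sums of the 9 annexins were 33.1, 72.7 and 161 in the same order. Without the brightest gene of each array, the annexin sums were 20.7, 50.5 and 98.6. Those of the fibroblast and stellate markers were then 65.0, 224 and 249, so their order between ADM and duct turned. Thy1 was the marker of that list not well above background on acinar, and Postn on duct. Vim, which is not specific to fibroblasts, was 1.63 and 1.46 above acinar. Fibroblasts also express Anxa1, Anxa2, Anxa5 and Anxa6, and the part of such cells in the annexin values was not tested.

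Macrophage markers were at least 2-fold higher than acinar in 10 of 12 for ADM, beside 21.8% of all genes. For duct, 2 of 12 of these markers were higher and 6 of 12 lower, beside 27.4% and 24.6% of all genes. Their summed signal was 1460 on acinar, 1090 on ADM and 604 on duct, most of it from Itgam on every array, and without Itgam it was 93.5, 341 and 66.9, so the order depends on that gene. Tyrobp, an adaptor of myeloid cells, had levels of 4.86, 7.08 and 4.13. The part of macrophages in the annexin values was not tested. Adgre1 and Csf1r of this list had probes that disagreed.

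Neutrophils are a known source of Anxa1 and Anxa3. Of 6 neutrophil markers with a probe, 5 (S100a8, S100a9, Retnlg, Mpo and Cxcr2) were not well above background on acinar and on duct, and 2 (Mpo and Cxcr2) on ADM. S100a9 was at least 3.44 above acinar and at least 4.67 above duct in ADM, and Retnlg at least 4.49 and 5.72. Csf3r, the only bright member, was between 7.22 and 7.77 on all 3 arrays. The summed signal without it was 0.347 on acinar, 8.28 on ADM and 0.122 on duct. The part of neutrophils in the levels of Anxa3 and Anxa1 was not tested.

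Endothelial markers were at least 2-fold higher than acinar in 4 of 6 for ADM and 4 of 5 for duct. They were lower in 1 of each (Emcn in ADM, with a bound of −1.19, and Kdr in duct, at −1.21). Of all genes, 21.8% and 27.4% were higher and 22.0% and 24.6% lower. The summed signals of the endothelial markers were 14.7, 13.8 and 20.8, or 1.25, 5.07 and 14.5 without the brightest gene of each array. Pecam1, Cdh5 and Vwf were not well above background on acinar, and the second probe of Plvap opposed its duct difference (−0.82 against 3.48). Among lymphocyte markers Ms4a1 was not well above background on any array, and Cd3g and Cd79a reached it on ADM and not on acinar. Cd3e, detected on all 3 arrays, was lower than acinar in ADM (−1.04) and in duct (−1.23). Islet markers were higher in 3 of 6 for ADM and 2 of 6 for duct, beside 21.8% and 27.4% of all genes, so the duct count lies near that share. The part of these cells in the annexin values was not tested.

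**Figure D5:**
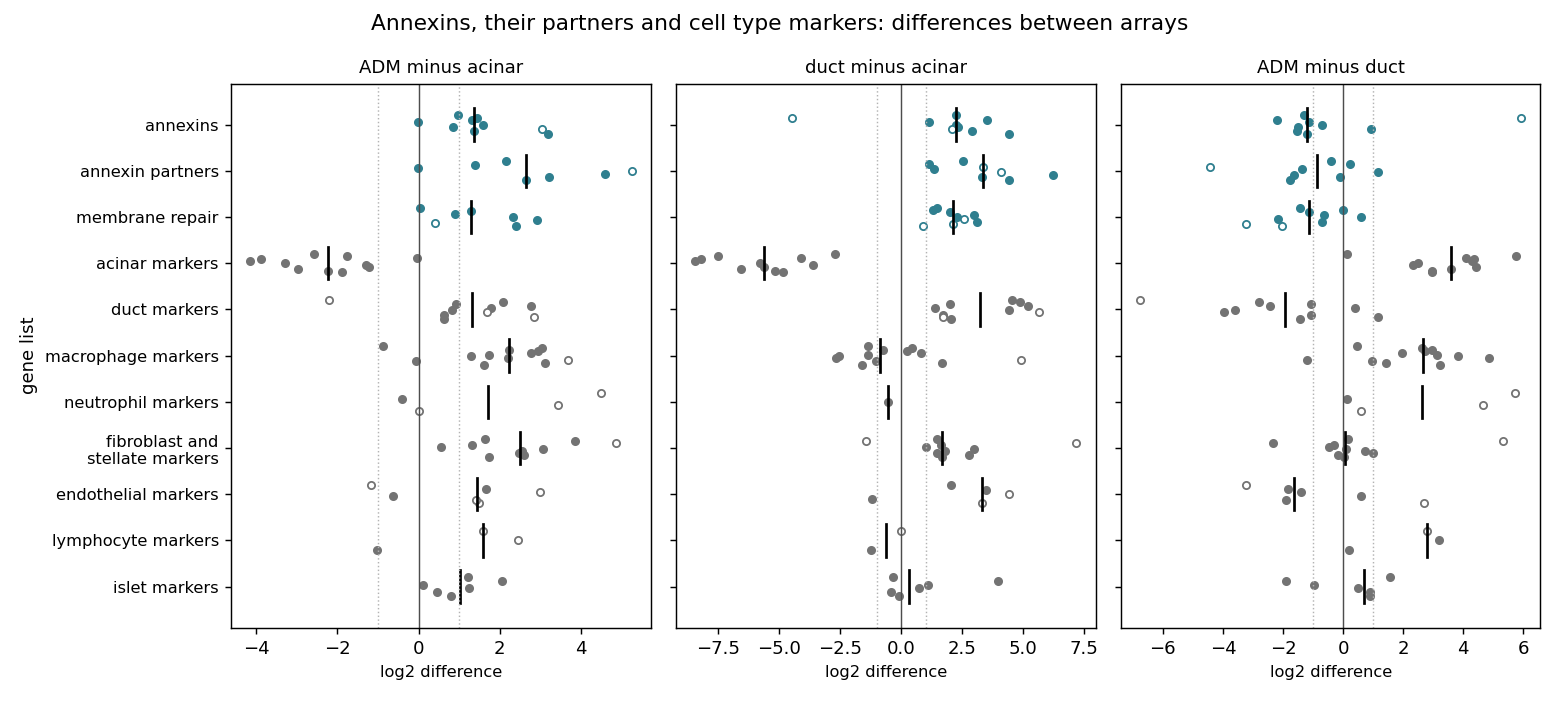
Differences between arrays (horizontal axis, log2; the scale differs between panels) of the genes in each list, with the list's median as a black bar, dotted lines at 2-fold and open symbols for bounds. The medians of annexins (1.36 and 2.27), partners (2.65 and 3.34) and fibroblast markers (2.50 and 1.66) lie above 0 in ADM minus acinar and duct minus acinar, and that of macrophage markers is 2.21 in the first and −0.89 in the second; single genes depart from their list, such as Anxa10 on duct.

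By the brightest probe, Anxa1 and Anxa7 had the widest range among the annexins detected on all 3 arrays. The genes with the most similar profile were sought among 9538 other genes. Distance over the 3 arrays was taken between levels centred on each gene's own mean. The second probes of Anxa1 and Anxa7, which differed, were not used. For the brightest Anxa1 probe the nearest were Proser2 (distance 0.09 log2 units), Adam15, a membrane metalloproteinase (0.10), Glis2 (0.11), Nop2 (0.14) and Vopp1 (0.16). For the brightest Anxa7 probe they included Vps4b, an ATPase of the ESCRT machinery (0.02), Ccp110 (0.06), Eppk1 (0.08) and St3gal5 (0.08). Profiles over 3 arrays are easily alike: 37 genes lay within 0.50 of Anxa1 and 100 within 0.50 of Anxa7.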

How the data were processed

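Cy3-labelled cDNA amplified from the RNA of 3 cell populations was read on 3 Agilent 1-colour arrays, with Feature Extraction 11.5.1.1 per the submitters' processing notes. The deposited scanner files hold linear intensity values. Per the file headers, the processed signal was background-subtracted and detrended within each array, with no scaling between arrays. The authors' deposited value table holds log2 values of 32939 probes. In 32905 of them that matched a kept probe, these equalled the log2 processed signal minus a constant per array within 0.01, and the constant lay within 0.01 of the array's 75th percentile, so scale and direction are known. The column medians were −0.57 for acinar, −0.56 for ADM and −0.63 for duct.

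Here, 3671 control spots and 110 to 117 spots with an outlier flag were left out per array, the remaining spots were put on the log2 scale, averaged by probe and reduced by the 75th percentile. Probes were named through unversioned RefSeq accessions (28020 with 1 symbol, 0 with several, 27644 unnamed), and the array is annotated on mm9, so the GRCm38.p6 gene table gave names only. A difference was taken for genes well above background (in most of the probe's spots) on 1 or both of the arrays. A dim side took the array's lowest detected signal, or its own where that was larger, so the difference is a bound, "at least". The brightest probe over the 3 arrays stood for a gene. There was no test, since each group has 1 array. The code was tested on simulated data with known differences. Python 3.11.15 and limma 3.58.1 (normexp, offset 50) were used.

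All 9 members were named with every probe, as were Anxa8, Anxa9 and Anxa13. From each list up to 4 genes per comparison with the largest differences, and binding partners of members, could be named, and other genes named were chosen after their values were seen. Members and lists were chosen with earlier results of these data known.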

Additional observations from a re-analysis of the deposited data

How the results depend on the processing

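Of 22 annexin differences of at least 2-fold, 14 kept direction and size under every alternative that could be run. Those were all of Anxa2, Anxa4, Anxa5, Anxa6 and Anxa10, and 2 of Anxa7. Apart from Anxa7, these genes have 1 probe each, so the choice of probe could not change them. Differences of at least 2-fold turned only with the choice of probe: with the second-brightest probe, Anxa1 for ADM minus acinar became −0.43 and Anxa11 for duct minus acinar −3.27, and averaging the probes made Anxa11 for duct minus acinar −0.50. Among differences under 2-fold, Anxa11 for ADM minus acinar (0.97) became −2.51 by the mean of probes and at least 63.9-fold lower by the second-brightest, and Anxa6 for ADM minus acinar (−0.02) became 0.08 to 0.33 under 4 alternatives. The probes of these genes differ as measured. The cause was not tested.

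The second-brightest probe raised the number of annexins at least 2-fold below acinar from 1 to 2 for duct and from 0 to 1 for ADM, beside 25.6% and 22.9% of all genes. The mean of probes also gave 1 for ADM, beside 21.7%. Requiring all 3 arrays above background leaves out Anxa3 and Anxa10 by construction, which took the count lower in duct than in acinar to 0 and the count higher in ADM than in duct to 0. Scaling to the 75th percentile of probes detected everywhere gave 2 of 9 annexins higher in ADM than in duct, beside 23.2% of all genes. A 1.5-fold threshold also gave 2 of 9, beside 30.2%. Neither count stands above the share of all genes. At 4-fold, 2 were higher in ADM than in acinar and 1 lower in ADM than in duct, where 9.12% of all genes passed in the first direction and about the same share as among the annexins passed in the second. Every other count was within 1.5 times the reported one. Median scaling raised the share of all genes at least 2-fold higher in duct than in acinar from 27.4% to 34.2% and cut the share lower from 24.6% to 18.6%; normexp gave 20.8% and 10.9%. No paired analysis was possible because each group has 1 array, and no replicate could be left out. One array per population limits the precision of every value.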
